A study of Rattus norvegicus with 18 samples.

Results

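Colon gene expression was compared between rats on day 5 and rats on day 2 of colitis induced by trinitrobenzene sulfonic acid (TNBS). The comparison takes the 3 arrays labelled TNBS day 5 and the 3 labelled TNBS day 2, which are 6 of the 18 arrays of the series, over all probe sets and with no control array. Rats of both groups had received 1 enema of 10 mg TNBS in 50% ethanol on day 0, and no group received ethanol alone, so the hapten and its vehicle cannot be told apart. At each day rats were selected on inflammatory markers, namely myeloperoxidase activity, weight loss and colon weight for its length, so that the severity of inflammation is in part set by the selection. Full-thickness colon was homogenised, RNA was extracted with Trizol and cleaned on columns, and each rat was read on 1 Affymetrix rat genome array. Strain, sex and age were not in the labels used here. All layers of the wall were read together, so fewer cells of a type and less RNA per cell cannot be told apart in any value below.

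TNBS binds to proteins of the colon and makes them foreign to the immune system, while ethanol opens the epithelial barrier. The first days are known for epithelial loss and the entry of neutrophils, and later days for monocytes, lymphocytes, vessel growth and scar matrix. Interferons act through JAK kinases on STAT and IRF transcription factors, which switch on antiviral effectors, antigen processing and lymphocyte-attracting chemokines. New vessels are built by endothelial cells that respond to VEGF, apelin and TGF-beta family ligands. Fibroblasts secrete collagens, which lysyl oxidase crosslinks, and activins and TGF-beta act on them.

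The arrays of a day were no closer to each other than to those of the other day. Over the 31042 probe sets tested, the 6 same-day pairs had Pearson correlations of 0.965 to 0.989 with a median of 0.976, and the 9 pairs between days had 0.953 to 0.985 with a median of 0.978. Day 2 replicate 1 stood apart: its correlation averaged 0.970 with the other day 2 arrays and 0.987 with the day 14 arrays. It also held the lowest level of neutrophil and macrophage lists and the highest level of colonocyte markers among the 6 arrays, so values without it are given beside the results that it moved most. Other arrays were uneven too. Day 2 replicate 3 averaged 0.971 with its own day. Day 5 replicate 1 averaged 0.980 with its own day and 0.984 with day 14. Day 5 replicate 2 averaged 0.974 with its own day and 0.951 with day 14. When limma weighted the arrays, day 5 replicate 2 had the lowest weight, 0.42, against 0.55 for day 2 replicate 1. The 3 prime minus 5 prime difference, a reading of RNA integrity, was 0.53 ± 0.18 on day 2 and 0.69 ± 0.03 on day 5 for Gapdh, and 1.07 ± 0.26 and 1.35 ± 0.07 for beta-actin (log2, SD, n = 3). Exact two-sided permutation tests gave p = 0.3 for both, where 0.1 is the smallest that 3 against 3 arrays allow. The part of RNA integrity in the results was not tested.

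No probe set passed correction. limma with 1 coefficient for each of the 4 TNBS days called 0% of probe sets higher and 0% lower at an adjusted p under 0.05, and the smallest adjusted p was 0.216. At an unadjusted p under 0.05, 1094 probe sets (3.52%) were higher on day 5 and 1242 (4.00%) lower. All day 5 arrays lay above all day 2 arrays for 1480 probe sets (4.77%) and below them for 1941 (6.25%). These are the backgrounds against which each count below is read. Large differences leaned upward all the same, since 212 probe sets were at least 2-fold higher on day 5 and 72 at least 2-fold lower. The standard error of a difference had a median of 0.15 over all probe sets and of 0.48 over those at least 2-fold apart, so the larger differences are also the less certain. With each of 14217 genes read by 1 probe set, 6473 had a positive and 7744 a negative difference. All day 5 arrays lay above all day 2 arrays for 723 genes and below them for 1022. At an unadjusted limma p under 0.05, 619 genes (4.35%) were higher and 695 (4.89%) lower. These gene counts are the backgrounds for the gene lists. The median difference of all genes was -0.02 on the log2 scale. Differences below are day 5 minus day 2 on that scale, with their standard errors from this fit.

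**Figure D1:**
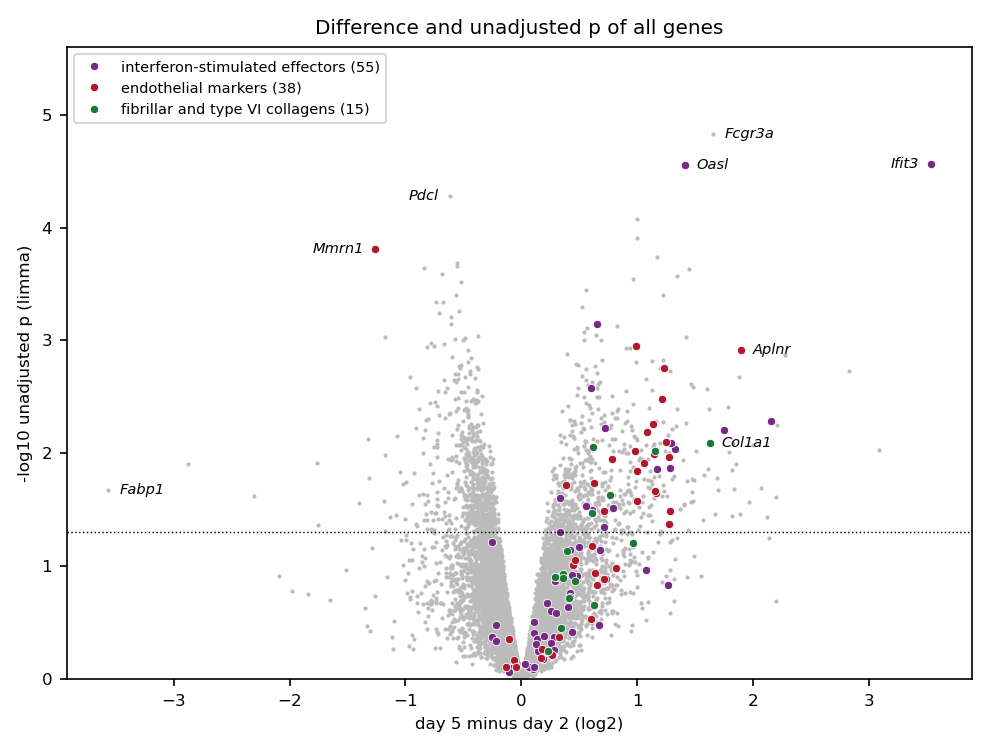
Difference between day 5 and day 2 (log2, x axis) against -log10 of the unadjusted limma p (y axis) for 14217 genes as grey points, with 3 gene lists in colour and a dotted line at the unadjusted level of 0.05. Ifit3 and Oasl (purple) lie at the upper right, most endothelial markers (red) and all 15 collagens (green) lie right of 0, and Mmrn1 and Pdcl lie at the upper left.

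The lead of the ranking was held by a keratin, an Fc receptor and antiviral genes. Fcgr3a encodes a receptor for antibody constant regions on macrophages and natural killer cells. It read 4.62, 5.08 and 4.95 on day 2 and 6.95, 5.95 and 6.72 on day 5. Every day 5 array lay above every day 2 array, and the difference was 1.65 ± 0.22 (limma adjusted p = 0.216). Ifit3, which encodes an interferon-induced protein that holds back viral RNA translation, read 4.00, 4.84 and 4.52 on day 2 and 7.95, 8.26 and 7.75 on day 5. That is 11.6-fold, a difference of 3.54 ± 0.51 with a 95% interval of 2.40 to 4.67 (limma adjusted p = 0.216), and 3.31 without day 2 replicate 1. Day 5 arrays were tight and lay far above those of day 2. Oasl, a relative of the 2'-5' oligoadenylate synthetases that sense viral RNA, read 7.33, 6.98 and 7.20 on day 2 and 8.64, 8.62 and 8.49 on day 5. Its groups did not overlap either, at 1.41 ± 0.21. The smallest p of all belonged to a probe set of the keratin gene Krt6c, which lies outside the naming rule and was chosen after its values were seen. It read 3.12, 3.25 and 3.17 on day 2 and 3.79, 3.82 and 4.03 on day 5, a small and very even difference of 0.70 ± 0.09. These values lie near the bottom of the scale, and the part of the low level in their evenness was not tested. The brighter Krt6c probe set differed by 0.94 ± 0.22 (limma adjusted p = 0.478), also with no overlap.

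Other leading genes belonged to myeloid cells and to cell shape and transport. Clec10a, a lectin of macrophages and dendritic cells, read 6.31, 6.87 and 6.65 on day 2 and 7.61, 7.66 and 7.54 on day 5, a difference of 1.00 ± 0.17. Tlr1, which forms a sensor of bacterial lipopeptides with TLR2, differed by 1.22 ± 0.24, from 6.01 to 6.31 on day 2 to 7.15 to 7.55 on day 5. Arrays of both genes separated cleanly by day. Micall2 (1.34 ± 0.25), Myo1e (0.96 ± 0.18) and Arhgap28 (0.56 ± 0.11) handle actin and junctions, and Ext1 (0.82 ± 0.18) polymerises heparan sulfate. Leprotl1 (0.53 ± 0.11), Rasa4 (1.00 ± 0.16), Tmem140 (1.17 ± 0.21), Tmem178a (1.45 ± 0.27) and Igsf9 (0.57 ± 0.12) also had non-overlapping groups. Less bright probe sets of Arhgap28 differed by 0.03, -0.10 and 0.14, and that of Ext1 by 0.22.

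The 15 genes with the smallest p among those lower on day 5 differed by -0.37 to -1.26. Pdcl, a chaperone of G protein beta-gamma subunits, read 6.47, 6.25 and 6.32 on day 2 and 5.70, 5.63 and 5.86 on day 5, a difference of -0.61 ± 0.10 (limma adjusted p = 0.323). Myc, the growth-promoting transcription factor, read 7.55, 7.78 and 7.77 on day 2 and 7.01, 7.18 and 7.24 on day 5, a difference of -0.56 ± 0.10. In both genes all day 5 arrays lay below all day 2 arrays. Prkdc (-0.55 ± 0.10), the catalytic subunit of DNA-dependent protein kinase, and Nbn (-0.61 ± 0.13), which senses DNA breaks, were lower with no overlap, as were the ribosome assembly factor Utp6 (-0.74 ± 0.15) and the Ran-binding Rangrf (-0.71 ± 0.15). Fzd1 (-0.54 ± 0.11), a Wnt receptor, and Pla2g5 (-0.69 ± 0.13), a secreted phospholipase, showed the same separation. Gin1 (-0.84 ± 0.16), Pyurf (-0.67 ± 0.14), Bcl7b (-0.57 ± 0.11), Zbtb1 (-0.52 ± 0.10), Srpk3 (-0.61 ± 0.13) and U2af1l4 (-0.37 ± 0.08) followed. The widest of the 15 was that of Mmrn1 (-1.26 ± 0.22), described with the vessel genes. Less bright probe sets differed by -0.10 for Srpk3, -0.22 for Zbtb1 and -0.11 for U2af1l4. Those of Pyurf differed by -0.07 and -0.18, and those of Utp6 by -0.33 and -0.32.

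The gene lists were written with results of these data known, so their shares describe these data and test nothing. Read as themes, with each gene counted once, 34 of 125 interferon genes (27.2%), 25 of 104 vessel genes (24.0%), 41 of 223 matrix genes (18.4%) and 39 of 241 acute injury genes (16.2%) were higher on day 5 at an unadjusted limma p under 0.05. Of all genes 4.35% were higher at such a p and 4.89% lower. In the order of the themes 1, 5, 3 and 7 were lower (0.8%, 4.81%, 1.35% and 2.9%). Without day 2 replicate 1 the genes higher at such a p numbered 21, 19, 19 and 24, and those lower 3, 7, 4 and 13. The median differences of the themes were 0.33, 0.27, 0.27 and 0.17, against -0.02 for all genes, and 0.29, 0.22, 0.175 and 0.066 without that array. Other arrays lowered some of them further. The interferon median was 0.23 without day 5 replicate 1, and those of vessel and matrix were 0.17 and 0.16 without day 5 replicate 2. None of these genes passed correction, and the lists within a theme differed, as follows.

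Promoters are shown for the interferon programme because its target genes share a known control element. The windows run from 250 bases before to 50 bases after the gene start on RefSeq assembly GRCr8, and are printed 5' to 3' on the gene's strand. Ifit3 (chr1:241527076-241527375, plus strand), Oasl (chr12:47356243-47356542, minus strand) and Cxcl10 (chr14:15988816-15989115, plus strand) are given, and capitals mark a match to the core of the interferon-stimulated response element.
Ifit3: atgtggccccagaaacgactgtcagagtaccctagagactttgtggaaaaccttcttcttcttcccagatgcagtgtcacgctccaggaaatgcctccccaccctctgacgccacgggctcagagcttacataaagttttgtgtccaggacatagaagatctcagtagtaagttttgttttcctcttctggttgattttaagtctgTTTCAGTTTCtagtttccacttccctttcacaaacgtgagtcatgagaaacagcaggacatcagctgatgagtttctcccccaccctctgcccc
Oasl: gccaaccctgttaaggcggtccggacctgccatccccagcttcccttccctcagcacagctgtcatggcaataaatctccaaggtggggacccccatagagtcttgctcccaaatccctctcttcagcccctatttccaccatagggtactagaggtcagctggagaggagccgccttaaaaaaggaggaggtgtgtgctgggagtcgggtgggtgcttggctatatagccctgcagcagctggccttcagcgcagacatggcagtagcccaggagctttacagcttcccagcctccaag
Cxcl10: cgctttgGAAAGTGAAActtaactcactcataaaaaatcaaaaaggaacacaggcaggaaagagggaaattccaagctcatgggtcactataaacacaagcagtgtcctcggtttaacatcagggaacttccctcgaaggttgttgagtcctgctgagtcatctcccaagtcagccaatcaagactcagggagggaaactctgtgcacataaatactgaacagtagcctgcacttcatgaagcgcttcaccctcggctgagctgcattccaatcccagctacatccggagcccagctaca
The element was searched as GAAANNGAAA on both strands, and the gamma-activated site, to which STAT dimers bind, as TTCNNNGAA, which reads the same on both strands. A base may count in both. Ifit3 held TTTCAGTTTC, the element on the other strand, at -44 to -35 from the start, and Cxcl10 held GAAAGTGAAA at -243 to -234. The Oasl window held neither string, and neither did those of Gch1, Trim25 and Cxcl16 hold the response element. The response element was held by 3.77% of the 27457 promoters that RefSeq gives, against 24 of 40 interferon-stimulated effectors with a window (60%), 6 of 7 interferon-induced GTPases and 9 of 16 genes of MHC class I processing. It was in 4 of 12 STAT and IRF factors, 1 of 5 interferon-induced chemokines and receptor, 1 of 10 class II genes and 0 of 10 interferon ligands and receptors. None of 21 endothelial markers, 10 fibrillar and type VI collagens and 18 basement membrane genes held it. Other lists did, such as 4 of 20 macrophage markers and 4 of 30 genes of the interleukin-1, interleukin-6 and TNF families. The gamma-activated site was held by 8.68% of all promoters and by 6 of 40 effectors (15%). Among the effectors, the element was present in 5 of 11 with an unadjusted p under 0.05 and in 19 of 29 with a larger p. A match describes these letters and is not evidence of binding.

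Interferon effectors stood higher on day 5 for the most part. Of 55 measured, 49 were higher and 6 lower; 17 were higher at an unadjusted limma p under 0.05 (30.9%, against 4.35% of all genes) and none was lower. In 12 of the 55 all day 5 arrays lay above all day 2 arrays and in 0 below, against 723 and 1022 of all 14217 genes. The median difference of the effectors was 0.40, and 0.33 without day 2 replicate 1, when 12 were higher and 2 lower at an unadjusted p under 0.05. Gch1, the first enzyme of tetrahydrobiopterin synthesis, read 8.06, 7.74 and 7.70 on day 2 and 8.47, 8.36 and 8.63 on day 5, a difference of 0.65 ± 0.14. Trim25, a ubiquitin ligase that activates the RNA sensor RIG-I, read 8.64, 8.32 and 8.03 and then 8.99, 8.80 and 9.01, a difference of 0.60 ± 0.16. Both genes separated by day, with the highest day 2 value in replicate 1. The spread within the list was wide, as genes picked out after their values were seen show. Slfn4 (2.16 ± 0.62), the ubiquitin-like modifier Isg15 (1.75 ± 0.52), Oas1a (1.33 ± 0.42) and Ifit2 (1.28 ± 0.43) differed by over 2-fold, while Mx1 (0.11 ± 0.37), Ifit1 (0.18 ± 0.41) and Dhx58 (-0.25 ± 0.12) did not.

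The level of Ifit3 and Oasl was not particular to day 5 in the time course. Ifit3 read 10.46, 7.75 and 8.94 on day 7 but 4.08, 3.82 and 3.81 on day 14, so that the days 5 and 7 arrays were high and those of days 2 and 14 low. Oasl read 8.99, 8.03 and 8.53 on day 7 and 7.89, 7.98 and 7.62 on day 14.

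**Figure D2:**
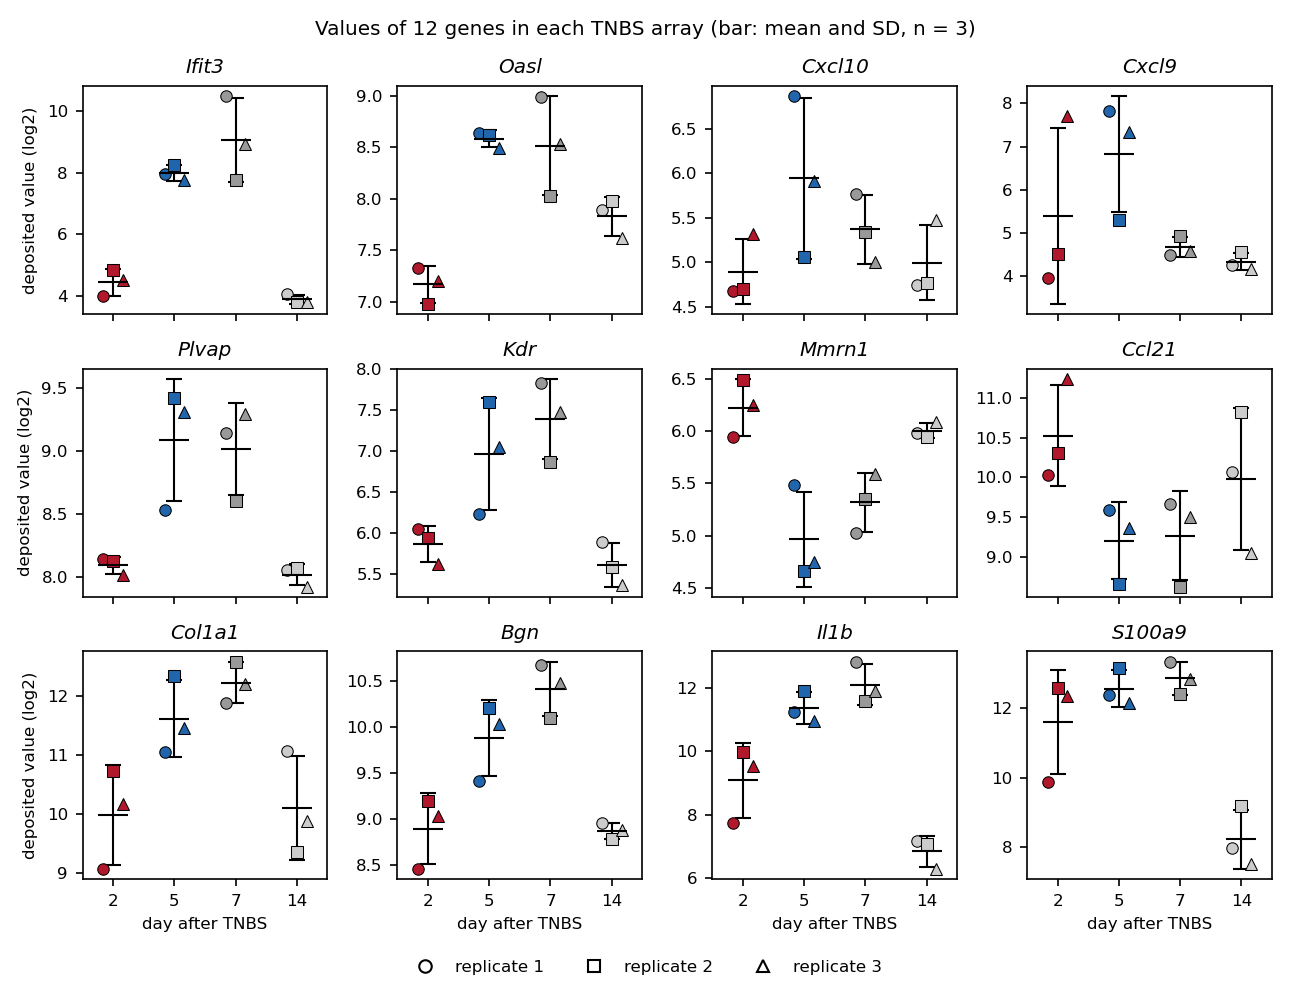
Deposited values (log2, y axis) of 12 genes in each TNBS array by day after TNBS (x axis), with 1 symbol per replicate number and a bar for the mean and SD of 3 arrays. Ifit3 and Oasl sit together on day 5 well above day 2, while Cxcl9 on day 2 spans 3.94 to 7.71 and overlaps day 5.

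Upstream of the effectors, cytokines and receptors went both ways. Of 13 interferon ligands and receptors 7 were higher and 6 lower, with a median of 0.03. At an unadjusted limma p under 0.05, 2 were higher (15.4%) and 1 lower (7.69%), against 4.35% and 4.89% of all genes. Ifng, the type II interferon, stayed between 3.01 and 3.35 in all 6 arrays, near the bottom of the scale. Ifnar2, a chain of the type I interferon receptor, read 7.05, 7.57 and 7.93 on day 2 and 8.18, 8.13 and 7.96 on day 5, a difference of 0.57 ± 0.24 with narrowly separated groups. Without day 2 replicate 1 it was 0.34. The p40 cytokine subunit Il12b went the other way at -0.37 ± 0.13, with all values between 4.08 and 4.70. Among STAT and IRF factors 14 of 15 were higher, with a median of 0.39 that was 0.21 without day 5 replicate 1. At an unadjusted limma p under 0.05, 3 of the 15 were higher (20%, against 4.35% of all genes). Irf1 is the factor that carries interferon-gamma signals to many targets. It read 9.07, 8.70 and 8.94 on day 2 and 10.29, 8.98 and 10.26 on day 5 (0.94 ± 0.35). Day 5 replicate 2 lay inside the day 2 range and the other day 5 arrays more than 1 unit above it. Stat2 (0.48 ± 0.20) and Batf2 (0.55 ± 0.17) separated by day.

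Genes typical of interferon gamma showed an uneven day 5. Gbp2, a guanylate-binding GTPase that attacks vacuoles of intracellular pathogens, read 5.95, 6.92 and 6.86 on day 2, against 8.37, 7.13 and 8.12 on day 5 (1.30 ± 0.46). The groups did not overlap, but replicate 2 of day 5 was close to day 2. Irgm2 read 6.99, 6.72 and 7.58 and then 8.84, 7.37 and 8.37 (1.10 ± 0.36), with day 5 replicate 2 again inside the day 2 range. All 8 interferon-induced GTPases measured were higher, 3 at an unadjusted limma p under 0.05 (37.5%, against 4.35% of all genes). Their median was 0.79, and it ranged from 0.34 without day 5 replicate 1 to 1.15 without day 5 replicate 2. Chemokines of the CXCR3 axis draw activated T cells. Cxcl10 read 4.67, 4.69 and 5.31 on day 2 and 6.87, 5.05 and 5.92 on day 5 (1.05 ± 0.40). Cxcl9 read 3.94, 4.50 and 7.71 on day 2 and 7.82, 5.29 and 7.34 on day 5 (1.43 ± 0.86, limma adjusted p = 0.76), and the difference was 0.71 without day 2 replicate 1. Its other probe set differed by 0.60 ± 0.90. The Cxcl9 level of day 2 replicate 3 was as high as the high arrays of day 5, and the same array held the most T cell and B cell marker signal. Cxcl16, a chemokine anchored in the membrane, separated by day at 0.60 ± 0.21. Cxcl11 differed by 0.29 ± 0.73, a value with no settled direction, since it turned to -0.29 without day 5 replicate 1.

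Antigen presentation genes lay along the same arrays. Tap1, which pumps peptides into the endoplasmic reticulum, read 6.09, 6.72 and 7.68 on day 2 and 8.83, 7.66 and 8.81 on day 5 (1.60 ± 0.42, and 1.24 without day 2 replicate 1). A second Tap1 probe set near the bottom of the scale, with a mean of 3.58, differed by -0.24. The immunoproteasome subunits Psmb8 (0.97 ± 0.38) and Psmb9 (0.82 ± 0.43) overlapped between days since day 2 replicate 3 read 9.65 and 10.04, and they differed by 0.59 and 0.47 without day 2 replicate 1. Of 18 genes of class I processing 15 were higher, 3 at an unadjusted limma p under 0.05 (16.7%, against 4.35% of all genes). Their median was 0.23, and it ranged from 0.087 without day 5 replicate 1 to 0.39 without day 2 replicate 3. For class II presentation 11 of 13 were higher, with 4 at such a p (30.8%) and a median of 0.83. Without day 2 replicate 1 the 4 became 1 and the median 0.39, and without day 2 replicate 3 the median was 1.40. RT1-DMa, a peptide-exchange chain, read 6.66, 7.41 and 8.13 on day 2 and 8.50, 8.05 and 8.47 on day 5 (0.94 ± 0.32, and 0.57 without day 2 replicate 1). RT1-Bb, a class II beta chain, read 8.03, 6.26 and 4.50 on day 2 and 9.36, 9.06 and 8.86 on day 5 (2.83 ± 0.69). Another RT1-Bb probe set of the same mean level, 8.17, differed by only 0.62 ± 1.76, so the size of the RT1-Bb difference is not settled. In the first, the lowest array was day 2 replicate 3, where the class II genes RT1-Ba and RT1-DMb were at their day 2 highest, 9.58 and 9.22. The class I gene RT1-T24-4 was also low in that array alone, at 3.81 against 7.98 to 9.13 in the other 5.

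Day 5 replicate 1 held the highest mean of every interferon list, and day 5 replicate 2 the lowest mean of day 5. For interferon-stimulated effectors, set against their mean over the 6 arrays, the day 2 arrays stood at -0.31, -0.36 and -0.13 and the day 5 arrays at 0.60, -0.04 and 0.25, with no overlap. GTPases stood at -0.74, -0.57 and 0.18 on day 2 and 1.02, -0.25 and 0.36 on day 5, which overlap. Vessel and matrix lists had another order. Endothelial markers stood at -0.52, -0.20 and -0.34 on day 2 and -0.16, 0.70 and 0.52 on day 5, and collagens at -0.69, 0.10 and -0.33 and then -0.04, 0.65 and 0.31. So the rat with the most interferon-induced transcripts on day 5 had the least endothelial and collagen signal of its group.

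**Figure D3:**
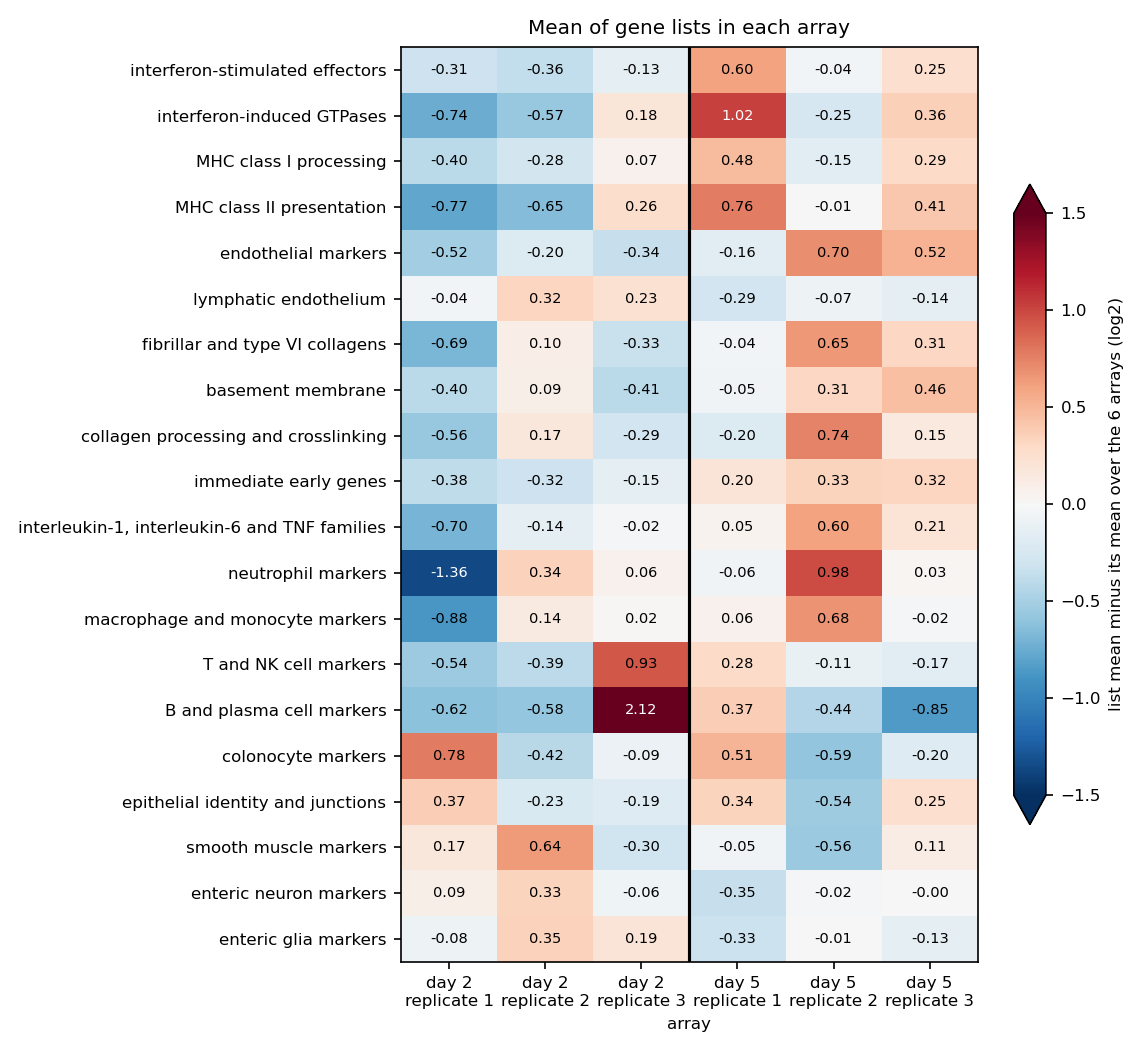
Mean of 20 gene lists in each of the 6 arrays (columns) minus the mean of that list over the 6 arrays (log2, colour and printed value), with day 2 left of the black line. Interferon lists are highest in day 5 replicate 1, endothelial markers, fibrillar collagens and basement membrane in day 5 replicates 2 and 3, neutrophil markers are at -1.36 in day 2 replicate 1, and B and plasma cell markers at 2.12 in day 2 replicate 3.

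Blood vessel endothelium gave the highest share of members at an unadjusted p under 0.05 among the vessel lists. Of 38 endothelial markers measured 33 were higher on day 5. At an unadjusted limma p under 0.05, 21 were higher (55.3%) and 1 lower (2.63%), against 4.35% and 4.89% of all genes. Against 723 and 1022 of all 14217 genes, all day 5 arrays lay above all day 2 arrays in 15 of the 38 markers and below them in 1. The median difference was 0.75, ranging from 0.53 to 1.12 as each array was left out, and 0.61 without day 2 replicate 1. Plvap, which forms the diaphragms of fenestrated capillaries, read 8.14, 8.12 and 8.02 on day 2 and 8.53, 9.42 and 9.31 on day 5 (0.99 ± 0.23). Day 2 arrays were nearly identical and all day 5 arrays lay above them, with replicate 1 the nearest. Aplnr, the apelin receptor of sprouting vessels, read 4.54, 4.62 and 4.35 and then 5.21, 7.50 and 6.50 (1.90 ± 0.44). Acvrl1, a receptor for BMP9 on endothelium, read 4.97, 5.07 and 5.05 and then 5.70, 6.54 and 6.53 (1.23 ± 0.30). In these genes replicates 2 and 3 of day 5 carried most of the difference, and no day 5 array reached down to day 2.

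Kdr, the main VEGF receptor, read 6.04, 5.94 and 5.63 on day 2 and 6.24, 7.59 and 7.05 on day 5 (1.09 ± 0.32, limma adjusted p = 0.54). The adhesion molecule Pecam1 read 6.18, 5.86 and 6.33 and then 6.70, 7.96 and 7.53 (1.27 ± 0.41). Vwf, the clotting carrier stored in endothelial granules, differed by 1.27 ± 0.55, and Tie1 by 1.25 ± 0.39. Tie1 overlapped by a narrow margin, 6.27 in day 2 replicate 2 against 6.25 in day 5 replicate 1, and the others separated. Levels on day 7 were as high, with Kdr at 7.83, 6.87 and 7.47, and on day 14 they were down to 5.89, 5.59 and 5.36.

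Ligands that act on vessels were spread around the median of all genes more closely. Of 29 angiogenic ligands and co-receptors 21 were higher, but 1 was higher and 1 lower at an unadjusted limma p under 0.05 (3.45% each, near the share of all genes), and the median was 0.17 (0.10 to 0.23 as each array was left out). Hey1, a Notch target of arteries, was higher by 0.65 ± 0.26, and Vegfb differed by -0.58 ± 0.22. Pericyte and mural markers were lower in 8 of 13, against 7744 of all 14217 genes. At an unadjusted limma p under 0.05, 1 marker was higher (7.69%) and 0 lower, against 4.35% and 4.89% of all genes. The median of these markers was -0.18. It ranged from -0.45 without day 2 replicate 3 to -0.060 without day 2 replicate 2. Mcam (0.93 ± 0.37), Anpep (0.88 ± 0.45) and Pdgfrb (0.73 ± 0.34) were among the 5 higher, and Kcnj8 had the lowest difference, -0.86. Of 18 leukocyte adhesion genes 13 were higher, with a median of 0.24 that came to 0.05 without day 2 replicate 1 and 0.48 without day 2 replicate 3. In that list Jam2 (0.64 ± 0.21) and the integrin Itgax (1.12 ± 0.40) separated by day.

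Lymphatic vessel genes pointed the other way. Lyve1, a hyaluronan receptor of lymphatic endothelium and some macrophages, read 7.89, 8.34 and 8.20 on day 2 and 7.09, 7.81 and 6.89 on day 5 (-0.88 ± 0.24). Ccl21, the chemokine that guides dendritic cells and T cells into lymphatics, read 10.03, 10.31 and 11.23 and then 9.60, 8.67 and 9.36 (-1.32 ± 0.47). All day 5 arrays of both genes lay below all day 2 arrays. Mmrn1, a protein of lymphatic endothelium and platelets that was counted with the endothelial list, read 5.94, 6.49 and 6.25 and then 5.48, 4.66 and 4.75 (-1.26 ± 0.22, and -1.40 without day 2 replicate 1). Reln (-0.58 ± 0.22) also separated. Of 8 lymphatic genes 6 were lower, 3 of them at an unadjusted limma p under 0.05 (37.5%, against 4.89% of all genes), with a median of -0.15, and Stab1 was at 0.44 ± 0.25. Ccl21 is also made in lymphoid tissue. Its highest array, day 2 replicate 3, held the highest mean of the B cell list, 2.12 against the mean of that list over the 6 arrays. Day 2 replicates 1 and 2 stood at -0.62 and -0.58 for that list, below the 0.37 of day 5 replicate 1, but above that array for Ccl21. The part of lymphoid tissue in the Ccl21 difference was not tested. Lyve1 and Mmrn1 were highest in day 2 replicate 2.

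Collagen genes stood higher on day 5 throughout. All 15 fibrillar and type VI collagens and their relatives had a positive difference, from 0.23 (Col8a1) to 1.63 (Col1a1), with a median of 0.46. Of these 5 had an unadjusted limma p under 0.05 (33.3%, against 4.35% of all genes). Without day 2 replicate 1 the median was 0.33 and 3 had such a p. Col1a1, a chain of the main scar collagen, read 9.07, 10.74 and 10.18 on day 2 and 11.06, 12.35 and 11.47 on day 5 (1.63 ± 0.51, 3.09-fold). Col1a2 read 9.77, 10.45 and 9.90 and then 10.96, 11.68 and 10.94 (1.15 ± 0.37). Both separated by day, although the arrays within a day spread widely. Col3a1, already at 11.51 to 12.27 on day 2, differed by 0.36 ± 0.21, and 0.16 without day 2 replicate 1.

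Basement membrane genes, many of them made by vessels, were higher in 17 of 20, with a median of 0.46. At an unadjusted limma p under 0.05, 7 were higher (35.0%, against 4.35% of all genes). Without day 2 replicate 1 that p was met by 4, and the median was 0.41. Col15a1 read 8.34, 8.96 and 8.34 on day 2 and 9.13, 10.67 and 9.87 on day 5, with no overlap (1.34 ± 0.37). Nid2 (1.13 ± 0.41), Col18a1 (1.04 ± 0.34), Col4a1 (0.89 ± 0.34) and perlecan, Hspg2 (0.74 ± 0.27), overlapped between days. As for endothelial markers, the list mean was highest in replicates 2 and 3 of day 5. Col18a1, whose end fragment is endostatin, read 6.70, 7.48 and 7.55 and then 7.53, 8.997 and 8.33.

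Enzymes that finish collagen were higher in 19 of 22, with a median of 0.29. At an unadjusted limma p under 0.05, 5 were higher (22.7%, against 4.35% of all genes), and without day 2 replicate 1 none was. The median ranged from 0.16 without day 5 replicate 2 to 0.54 without day 5 replicate 1. Lox, the crosslinking lysyl oxidase, read 5.43, 7.62 and 6.55 on day 2 and 7.62, 9.13 and 7.92 on day 5 (1.69 ± 0.60, and 1.14 without day 2 replicate 1). The highest day 2 array and the lowest day 5 array both read 7.62. Matricellular and elastic fibre genes were higher in 22 of 30, with a median of 0.30 that was 0.11 without day 2 replicate 1, 0.093 without day 5 replicate 2 and 0.49 without day 5 replicate 1. Cthrc1 (1.61 ± 0.55), Sparc (1.47 ± 0.52) and Fbln2 (1.26 ± 0.48) were examples, all with overlapping groups. Sparc differed by 0.88 without day 2 replicate 1, and another of its probe sets by 0.64 ± 0.36.

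Proteoglycans split. Bgn, biglycan, read 8.46, 9.20 and 9.04 on day 2 and 9.42, 10.21 and 10.03 on day 5 (0.99 ± 0.24), with no overlap. Fmod, which shapes collagen fibrils, read 6.27, 6.45 and 5.21 and then 6.85, 7.41 and 7.34 (1.23 ± 0.29). Aspn, of the same leucine-rich family, read 8.18, 8.20 and 6.80 and then 6.45, 6.51 and 6.65 (-1.19 ± 0.46), all below day 2. Of the 20 proteoglycans 9 were higher and 11 lower, with a median of -0.03 whose sign turned as arrays were left out (-0.13 to 0.14). Sdc1, an epithelial and plasma cell syndecan, separated at 0.58 ± 0.15.

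Proteases and growth factors held some of the widest differences, though their lists varied. Of 30 metalloproteinases and inhibitors, 2 (6.67%) were higher and 1 (3.33%) lower at an unadjusted limma p under 0.05, with a median of 0.18. All genes gave 4.35% and 4.89%. Of 20 plasminogen and coagulation genes 4 (20%) were higher at such a p, with a median of 0.49. Fibroblast markers had a median of 0.09 (-0.0035 without day 2 replicate 1) and integrin subunits of 0.15. Inhba, the activin A chain, read 5.13, 7.05 and 6.34 on day 2 and 7.38, 9.19 and 8.59 on day 5 (2.21 ± 0.64). Its groups separated, and without day 2 replicate 1 the difference was 1.69. Another Inhba probe set, at a mean of 4.42, differed by -0.003. Plau, urokinase, read 6.07, 6.93 and 7.10 and then 7.68, 7.71 and 8.71 (1.33 ± 0.39). The protease inhibitor A2m read 4.58, 6.33 and 8.47 and then 10.12, 9.09 and 9.44 (3.09 ± 0.98, and 2.15 without day 2 replicate 1). Mmp13, a collagenase, spread from 4.03 to 5.74 on day 2 and from 5.14 to 8.61 on day 5 (2.14 ± 1.00). Adamts5 differed by -0.73 ± 0.22 and Adamts12 by 0.49 ± 0.16, both with no overlap. Of 28 genes of the TGF-beta and activin pathway 22 were higher, with a median of 0.15. At an unadjusted limma p under 0.05, 6 of the 28 were higher (21.4%, against 4.35% of all genes). Without day 2 replicate 1, 3 were higher and 1 lower at such a p, and without day 5 replicate 1 the median was 0.28. The inhibitor Timp1 was at -0.70 ± 0.52, and -1.13 without day 2 replicate 1.

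**Figure D4:**
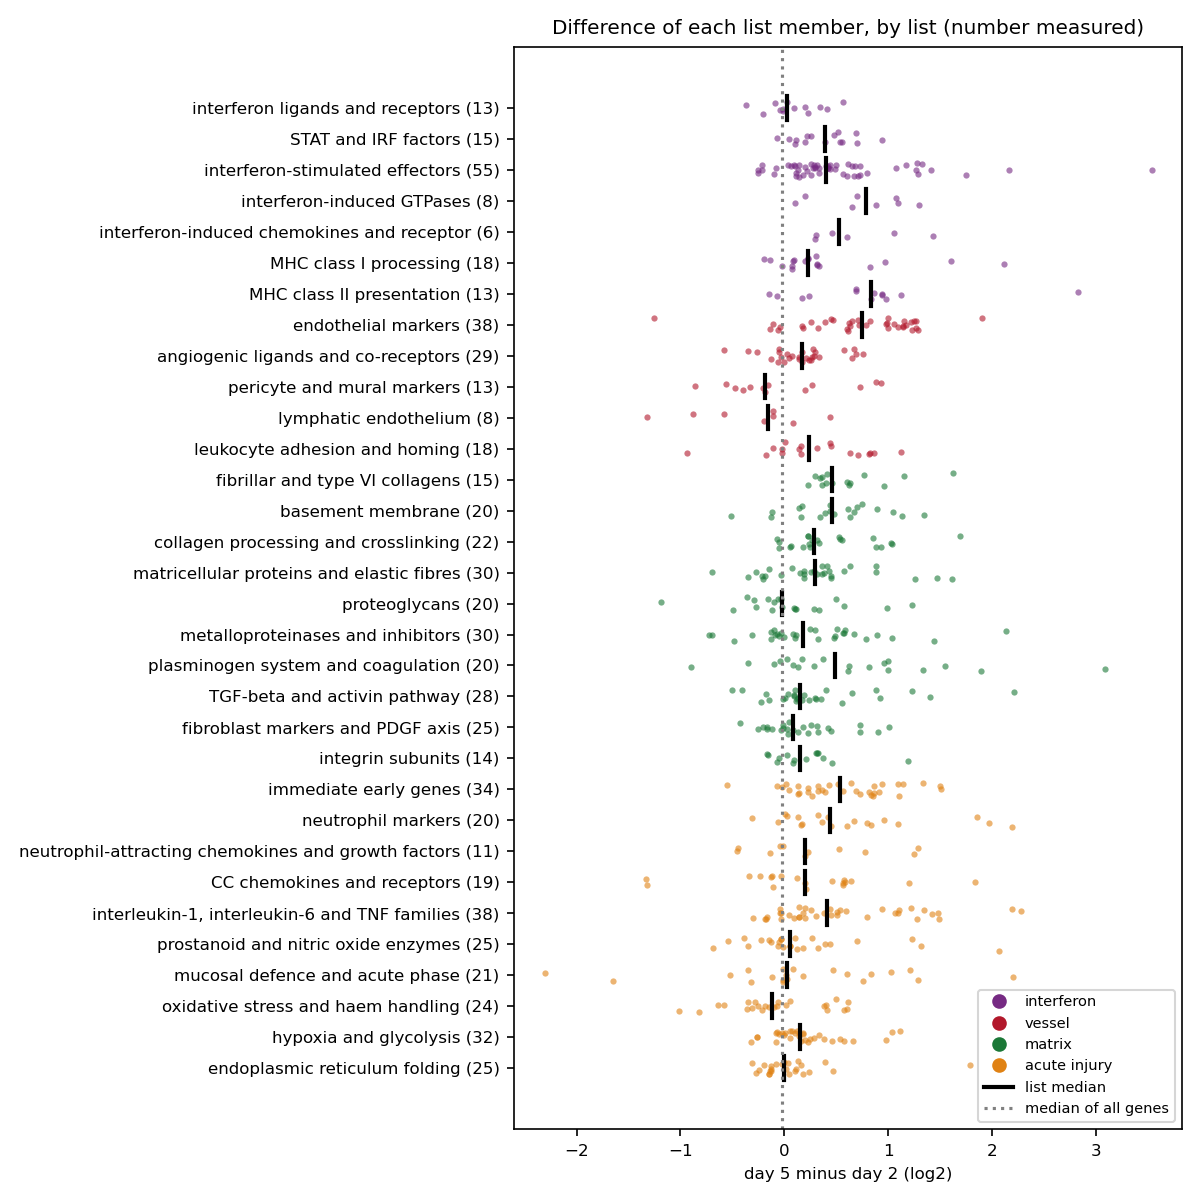
Difference between day 5 and day 2 (log2, x axis) of each measured member of 32 gene lists (y axis, number measured in brackets), coloured by theme, with a black bar at the list median and a dotted line at the median of all genes (-0.02). The medians of endothelial markers (0.75), interferon-induced GTPases (0.79) and class II presentation (0.83) lie farthest right, and those of pericyte and lymphatic markers lie left of 0. Leaving out 1 array moved the GTPase median between 0.34 and 1.15.

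Acute injury genes were not lower on day 5 as a whole, with 159 of 241 higher and 82 lower. Immediate early genes, switched on within minutes of a stimulus, were higher in 31 of 34. At an unadjusted limma p under 0.05, 10 of the 34 were higher (29.4%, against 4.35% of all genes). Against 723 and 1022 of all 14217 genes, all day 5 arrays lay above all day 2 arrays in 15 immediate early genes and below them in 1. Their median was 0.54, and 0.53 without day 2 replicate 1. Junb read 9.004, 9.46 and 9.57 on day 2 and 10.42, 11.09 and 10.52 on day 5 (1.33 ± 0.41). Gadd45b, a stress gene, read 7.47, 8.39 and 8.23 and then 9.60, 9.86 and 9.16 (1.51 ± 0.48). Cdkn1a, the p21 cell cycle brake, separated at 0.94 ± 0.28. Of the 3 lower ones, Myc, described above, was the 1 with an unadjusted p under 0.05.

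Interleukin-1 was higher on day 5 as well. Il1b read 7.74, 9.97 and 9.52 on day 2 and 11.24, 11.90 and 10.93 on day 5 (2.28 ± 0.53, 4.85-fold, limma adjusted p = 0.48). No arrays overlapped, and the difference was 1.61 without day 2 replicate 1. Nfkbia, the feedback inhibitor of NF-kB, read 9.14, 9.42 and 10.03 and then 11.10, 10.96 and 10.79 (1.42 ± 0.41). Tnfrsf1b differed by 1.48 ± 0.38 and Il1rap by 1.27 ± 0.41, both separated. Of 38 genes of the interleukin-1, interleukin-6 and TNF families 30 were higher, with a median of 0.41. At an unadjusted limma p under 0.05, 11 of the 38 were higher (28.9%, against 4.35% of all genes). Without day 2 replicate 1 it was 6 and the median was 0.21, and without day 2 replicate 3 the median was 0.62. Il6 gave 0.30 ± 0.72, and its sign turned under other settings. Il1r2, the decoy receptor, read 5.13, 8.89 and 8.46 and then 9.15, 10.78 and 9.13, so that its 2.20 ± 0.84 became 1.01 without day 2 replicate 1.

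Neutrophil markers depended on that array. S100a9, a calprotectin chain, read 9.88, 12.58 and 12.37 on day 2, against 12.40, 13.16 and 12.15 on day 5. The difference was 0.96 ± 0.66 with all arrays and 0.10 without day 2 replicate 1, and that of S100a8 was 1.10 ± 0.82 and 0.07. For Cxcl2, a neutrophil chemokine, the values were 1.25 ± 0.74 and 0.31. The median of 20 neutrophil markers was 0.44 with all arrays and 0.05 without day 2 replicate 1, that of 28 macrophage markers 0.36 and 0.09, and that of 17 complement genes 0.44 and 0.06. Some macrophage genes stood higher on day 5 without that array too. Clec7a, the beta-glucan receptor, read 5.34, 7.07 and 6.48 and then 7.89, 8.92 and 7.74 (1.88 ± 0.47, and 1.40 without that array). The chemokine Ccl4 read 4.56, 5.45 and 5.58 and then 6.16, 6.76 and 6.26 (1.20 ± 0.29, and 0.88). C1qa (0.87 ± 0.26) and Ms4a7 (1.27 ± 0.38, and 0.79 without that array) also separated by day.

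Of the 241 acute injury genes 82 were lower on day 5. At an unadjusted limma p under 0.05, 7 of the 241 were lower (2.9%, against 4.89% of all genes). Without day 2 replicate 1, 13 of the 241 were lower at such a p, against 822 of all 14217 genes. The oxidative stress and haem list was lower in 15 of 24, against 7744 of all 14217 genes, with 2 higher and 1 lower at such a p. Its median was -0.12, and 0.056 without day 5 replicate 2. Reg3g, an antibacterial lectin of epithelium, read 5.05, 8.38 and 8.10 on day 2 and 4.57, 6.10 and 3.93 on day 5 (-2.31 ± 0.88). Its day 2 replicate 1 lay among the day 5 arrays, and without it the difference was -3.37. Mt2A, a metal-binding stress protein, read 9.49, 11.05 and 11.03 and then 8.63, 9.96 and 9.93, a difference of -1.02 ± 0.56 with overlapping groups and an unadjusted limma p over 0.05, and -1.53 without that array. Sod3, the extracellular superoxide dismutase, separated at -0.82 ± 0.34. Pla2g5 read 5.28, 5.30 and 4.92 and then 4.35, 4.51 and 4.57. On day 7 it read 3.82, 3.67 and 3.92. The stress factor Ddit3 went against these, at 6.71, 7.62 and 7.65 and then 8.53, 9.87 and 8.93 (1.78 ± 0.49), while the 25 endoplasmic reticulum folding genes, of which it had the highest difference, had a median of -0.003. Arg1, an enzyme of alternatively activated macrophages, differed by 2.07 ± 0.76 and Slc2a1, the glucose transporter GLUT1, by 0.66 ± 0.16, both without overlap.

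Markers of colon were present, with the goblet cell mucin Muc2 at 12.33 to 13.25 and the smooth muscle myosin Myh11 at 11.09 to 12.57 in the 6 arrays. Colonocyte genes had no common direction, with 14 higher and 12 lower of 26 and a median of 0.00 that turned from -0.32 without day 5 replicate 1 to 0.21 without day 5 replicate 2. At an unadjusted limma p under 0.05, 1 was higher (3.85%) and 4 lower (15.4%), against 4.35% and 4.89% of all genes. Without day 2 replicate 1, 4 colonocyte genes were higher and 1 lower at such a p. Their list mean was highest in day 2 replicate 1 (0.78) and lowest in day 5 replicate 2 (-0.59). Slc9a3, the apical sodium-proton exchanger, read 10.90, 8.52 and 9.32 on day 2, against 8.77, 5.64 and 5.70 on day 5 (-2.88 ± 0.96). The sodium channel subunits Scnn1b (-0.67 ± 0.24) and Scnn1g (-0.56 ± 0.19) were lower with no overlap, and by -0.38 and -0.34 without day 2 replicate 1. The largest negative difference over all genes was that of Fabp1, a fatty acid carrier of enterocytes, at -3.57 ± 1.33. Ceacam1, a bacterial receptor and adhesion molecule, read 7.48, 6.32 and 7.88 and then 9.27, 8.04 and 9.84 (1.82 ± 0.62). Epithelial identity genes were higher in 17 of 25 with a median of 0.10 (-0.092 to 0.30 as each array was left out) and none at an unadjusted limma p under 0.05, against 4.35% of all genes higher and 4.89% lower.

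Muscle, nerve and glial genes leaned downward. Of 24 smooth muscle markers 22 were lower, 2 at an unadjusted limma p under 0.05 (8.33%, against 4.89% of all genes), with a median of -0.38. That median was -0.12 without day 2 replicate 2 and -0.14 without day 5 replicate 2. Actg2, the enteric actin, read 12.51, 12.99 and 12.34 on day 2 and 12.16, 11.32 and 12.07 on day 5 (-0.76 ± 0.26). Of 27 enteric neuron markers 21 were lower, 6 at such a p (22.2%, against 4.89% of all genes). Their median was -0.16, and -0.071 without day 5 replicate 1. Calb2, calretinin, read 7.17, 6.92 and 6.40 and then 5.90, 5.86 and 6.00 (-0.91 ± 0.24). Gap43, a growth cone protein, read 6.95, 7.95 and 6.92 and then 5.86, 6.48 and 6.42 (-1.02 ± 0.37), although another of its probe sets, at a mean of 3.04, differed by 0.01. Sox10, the factor that defines glia, read 5.90, 6.26 and 6.12 and then 5.74, 5.86 and 5.74 (-0.31 ± 0.11). These 4 genes had no overlap between days. Of 8 enteroendocrine genes 7 were lower, with a median of -0.67, Chgb at -1.75 ± 0.77 and Cck at 0.67 ± 0.26.

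Lymphocyte markers followed a single array. Cd3e read 4.52, 4.34 and 8.43 on day 2 and 6.68, 5.67 and 5.64 on day 5, and the B cell receptor for IgM, Fcmr, read 5.80, 5.69 and 9.66 and then 6.93, 5.40 and 4.75. Day 2 replicate 3 was far above all others in both. The B cell list was lower in 14 of 16, with a median of -0.66 that became 0.25 without that array, and the T and NK list had a median of -0.05 that became 0.43. The cytotoxic genes Gzmb (0.71 ± 0.20) and Nkg7 (0.36 ± 0.14) separated by day, with Gzmb at 3.87, 4.02 and 4.26 and then 5.19, 4.61 and 4.49. Interferon lists were also higher in day 2 replicate 3 than in the other day 2 arrays, and without it the median of the effectors was 0.45. Over all single arrays left out it ranged from 0.28 to 0.56. The part of these lymphocyte markers in the interferon values was not tested. Mesothelial genes of the serosa were higher in 8 of 9, with Msln at 4.39, 4.52 and 5.03 and then 5.62, 6.37 and 5.36 (1.14 ± 0.36).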

How the data were processed

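The deposited table held 31099 probe sets for 18 arrays and 0 columns of other samples. The deposited values were taken as log2 signals, which the authors normalized with the Bioconductor package affyPLM, per the labels and design text; for the log base, the background method and the package version, no statement was found in the sources used here. Array controls (57 probe sets) were dropped, and 31042 remained. The platform annotation gives a lone gene symbol for 20826 of them, more than 1 for 436 and lists none for 9780. Each gene is represented by the single-symbol probe set whose mean over the 12 TNBS arrays was highest, and symbols were checked against RefSeq.

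limma 3.58.1 (R 4.3.3) fitted 1 coefficient for each TNBS day to the 12 TNBS arrays, and day 5 was compared with day 2, two-sided, with Benjamini-Hochberg adjustment over all probe sets and a threshold of 0.05. The arrays of days 7 and 14 entered to estimate the spread. Replicates are separate arrays of a day, which the labels number, and their number limits the precision. Simulated data with known differences were used to test the fit.

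The members, the 51 gene lists and the naming rule were chosen with earlier results of these data known. Of 1212 list entries 169 had no single-symbol probe set, and 995 genes were measured. Named are the 15 genes with the smallest p in each direction (since none was called), up to 4 members of each list with the smallest p, and a fixed panel, 242 genes in all. Among panel genes without a single-symbol probe set were Cdh5 and Cd79a, and 1 item is not reported here. Alternatives were 2 other scales, filters on low values, other sets of arrays, array weights, another empirical Bayes prior, a replicate block, 1 probe set per gene, other thresholds and leaving out each array. Figures were drawn with matplotlib 3.10.9.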

Additional observations from a re-analysis of the deposited data

How the results depend on the processing

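The count of 0 probe sets called in either direction at an adjusted limma p under 0.05 was the same on quantile-normalized and median-centred values, with the lowest 25% or 50% of probe sets left out, with the 6 arrays of days 2 and 5 alone (smallest adjusted p 0.0799), with 1 probe set per gene, and at thresholds of 0.01 and 0.10. Calls higher on day 5 numbered 3 when all 18 arrays were fitted. They were Fcgr3a and Ifit3 (both at adjusted p = 0.00492) and the less bright Krt6c probe set (0.041). With trend and robust empirical Bayes 1 was called (the same Krt6c probe set, 0.017), and 1 with array weights (Fcgr3a, 0.0316). Leaving out each array gave 0 to 1 call higher and 0 lower. The call was Fcgr3a without day 5 replicate 2 (1.95, adjusted p = 0.00839) and a probe set with no listed gene without day 5 replicate 1 (1.64, adjusted p = 0.0466). Whether replicate numbers pair rats was checked by correlating deviations from the day means, which gave 0.47, 0.42 and -0.22 for the same numbers, so the numbers were not taken as pairs. With a replicate block 0 were called, the smallest adjusted p was 0.284, and 1258 were higher and 1439 lower at an unadjusted p under 0.05, against 1094 and 1242. Of 242 named genes 231 kept their sign in all settings. The filters, the fits of 6 or 18 arrays, the other prior, the block and 1 probe set per gene cannot change a sign. Most named genes were also picked for a small p in this contrast, so the kept signs were in part fixed in advance. Leaving out each array turned the sign of the other 11, whose differences then ran from -0.48 to 1.57 for Cd3e, -0.43 to 0.80 for Il6, -0.45 to 0.013 for Muc2, -0.34 to 0.78 for Slc26a3, -0.89 to 0.15 for Blk, -0.29 to 0.94 for Cxcl11, -0.70 to 0.49 for Mmp3, -0.099 to 0.048 for Prg2, -0.91 to 0.035 for Pf4, -0.024 to 0.16 for Itga2b and -1.62 to 0.024 for Jchain. With array weights Il6 came to -0.40 and Itga2b to -0.0063. The cause was not tested. Of 510 list medians recomputed, 13 moved by more than the SD of the list mean between replicates of a day. That SD is itself wide where 1 array stands apart, and the replicate block cannot change a difference. The count is therefore no measure of how stable the medians are. All 15 collagens, 49 of 55 interferon effectors and 33 of 38 endothelial markers stood higher on quantile-normalized and on median-centred values as well, and these scales moved the median difference by 0.0018 and 0.0043.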

Other observations

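Lists outside the 4 themes gave these values. Of 24 genes of fatty acid oxidation and ketogenesis, by which colonocytes burn butyrate, 18 were lower on day 5. At an unadjusted limma p under 0.05, 1 of the 24 was lower (4.17%, near the 4.89% of all genes). Their median was -0.11, but 0.082 without day 5 replicate 2 and -0.028 without day 2 replicate 1, so the direction turned on 1 array. Cell division genes were higher in 18 of 38 and lower in 20, against 6473 and 7744 of all 14217 genes. The median of the cell division genes was -0.03 (-0.22 to 0.11 as each array was left out). Decr1, an oxidation enzyme, read 9.42, 9.25 and 8.92 on day 2 and 8.80, 8.39 and 8.50 on day 5 (-0.63 ± 0.29), with no overlap. Of 32 hypoxia and glycolysis genes 24 were higher, 5 at an unadjusted limma p under 0.05 (15.6%, against 4.35% of all genes). Slc16a3, a lactate exporter, read 7.31, 8.38 and 8.06 and then 8.52, 9.52 and 9.06 (1.11 ± 0.38), all above day 2. Mast cell markers had a median of 0.05 (-0.058 to 0.20 as each array was left out) and adipocyte markers of -0.15 (-0.27 to -0.070).

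The values rest on 3 rats for each day, selected on inflammatory markers. No probe set passed correction in the fit of 12 arrays, so the direction of single genes is uncertain. It is most uncertain where 1 array sets it, such as day 2 replicate 1 or 3. Differences were estimated with a median standard error of 0.15, and larger ones with 0.48. The cell composition of the wall was not measured. Genes with more than 1 probe set were read by the brightest, and some of the others differed in sign.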
